A study of Mus musculus with 904 samples.

Results

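Striatal projection neurons carry a set of transcription factors that marks them among forebrain neurons, and 9 of these genes are described here: Meis2, Foxp1, Foxp2, Rarb, Six3, Isl1, Bcl11b, Ebf1 and Zfp503. They were named as a list, which was chosen with earlier results of these data known. All 9 are among the 32285 genes of the deposited count table. Their reads were followed in single mouse brain nuclei, of which 835 of 904 were kept because they had at least 1000 genes and 10000 reads. Of the kept nuclei, 214 (25.6%) met the rule for striatal projection neurons, which asks for Rgs9, a signalling regulator of striatal neurons, at 20 CPM or more and Slc17a7, a vesicular glutamate transporter of cortical excitatory neurons, under 20 CPM. CPM, a scaled count, is the reads of a gene as a share of all reads that a nucleus or library had on genes, scaled to a sum of 1e6.

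The nuclei came from C57Bl/6J mice given a PHP.eB adeno-associated virus, a capsid that crosses into the brain, at 5e11 vector genomes per mouse, 3 to 4 weeks before nuclei were sorted for yellow fluorescence. In every construct the DLX2.0 enhancer, which targets forebrain GABAergic neurons, drives a fluorescent reporter together with the histone H2B, which a P2A peptide separates from the reporter in the 2 constructs with P2A in their name, and the 16 constructs in the sample titles differ in the reporter and in RNA elements placed before or after it. Each nucleus was amplified with SMART-Seq v4, which reads polyadenylated RNA along the whole transcript. There was no untreated animal, all groups carried a virus, and no label names an animal, so a p-value measures only the spread between constructs, which may be technical. Every sample label names primary visual cortex, while the design text also names motor cortex and striatum.

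Projection neurons make up most of the striatum and send inhibitory axons out of it along a pair of routes. Neurons of the direct pathway carry the dopamine receptor gene Drd1 and those of the indirect pathway carry Drd2. In the mouse the embryonic origin of both lies in the lateral ganglionic eminence, where homeobox, forkhead, zinc finger and nuclear receptor factors set up their identity. Several of those factors stay on in the adult neuron, and some are shared with deep-layer cortical neurons or with striatal cholinergic interneurons.

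The projection nuclei were split by the dopamine receptors into 112 nuclei with Drd1 above Drd2 (Drd1-type), 72 with Drd2 above Drd1 (Drd2-type) and 30 with reads of neither. They were set against 114 Sst nuclei (Sst at 100 CPM or more) and 92 Pvalb nuclei (Pvalb at 20 CPM or more and Sst under 100 CPM), both interneurons, 134 excitatory nuclei (Slc17a7 at 50 CPM or more), 35 Aqp4 nuclei (Aqp4, a water channel of astrocytes, at 20 CPM or more) and 37 Mog nuclei (Mog, a myelin protein of oligodendrocytes, at 20 CPM or more). A further 92 nuclei that met the rule of 2 or more classes, 39 of them projection and Sst, were left out, and 117 met none. The name held against 10 striatal markers that the rule did not use: summed over the list, they reached 7113 to 10267 CPM in the Drd1-type libraries and 15250 to 19957 CPM in the Drd2-type libraries, against at most 1156 CPM in Sst, 1774 CPM in Pvalb, 3262 CPM in excitatory, 1376 CPM in Aqp4 and 1179 CPM in Mog libraries. The projection nuclei therefore go against the tissue label. Reads of a class were summed per construct where it had at least 5 nuclei, which gave 9 Drd1-type, 5 Drd2-type, 12 Sst, 9 Pvalb, 13 excitatory, 2 Aqp4 and 3 Mog libraries of 970935 to 7097537 reads. These 53 libraries are the samples of every comparison of classes, since nuclei of 1 construct are not replicates.

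Meis2, Foxp1 and Bcl11b were high in both types of projection neuron. Meis2, a homeobox factor of the TALE family that is expressed in the lateral ganglionic eminence, spanned 368 to 1255 CPM in the 9 Drd1-type libraries with a median of 623 CPM. Its 5 Drd2-type libraries held 512, 530, 579, 722 and 1071 CPM. The types overlapped, and Meis2 was at 0 in 11 of 12 Sst libraries, 8 of 9 Pvalb libraries and all 3 Mog libraries. In excitatory libraries it spanned 22.4 to 233 CPM with a median of 88.4 CPM, and the 2 Aqp4 libraries held 40.5 and 122 CPM, so that the lowest projection library stood above every other library. Summed libraries cannot tell fewer nuclei with a transcript from less of it in each nucleus, and the share of nuclei with at least 1 read is given beside them. Meis2 had reads in 112 of 112 Drd1-type nuclei and 95.8% of Drd2-type nuclei (95% exact binomial interval 88.3 to 99.1%), against 45.5% of excitatory, 40% of Aqp4, 2.7% of Mog, 1.09% of Pvalb and 0.877% of Sst nuclei. Median depth was close across the neuron classes, from 233164 reads in excitatory to 264912 reads in Drd1-type nuclei. Such intervals take nuclei as independent and cover counting error only.

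**Figure D1:**
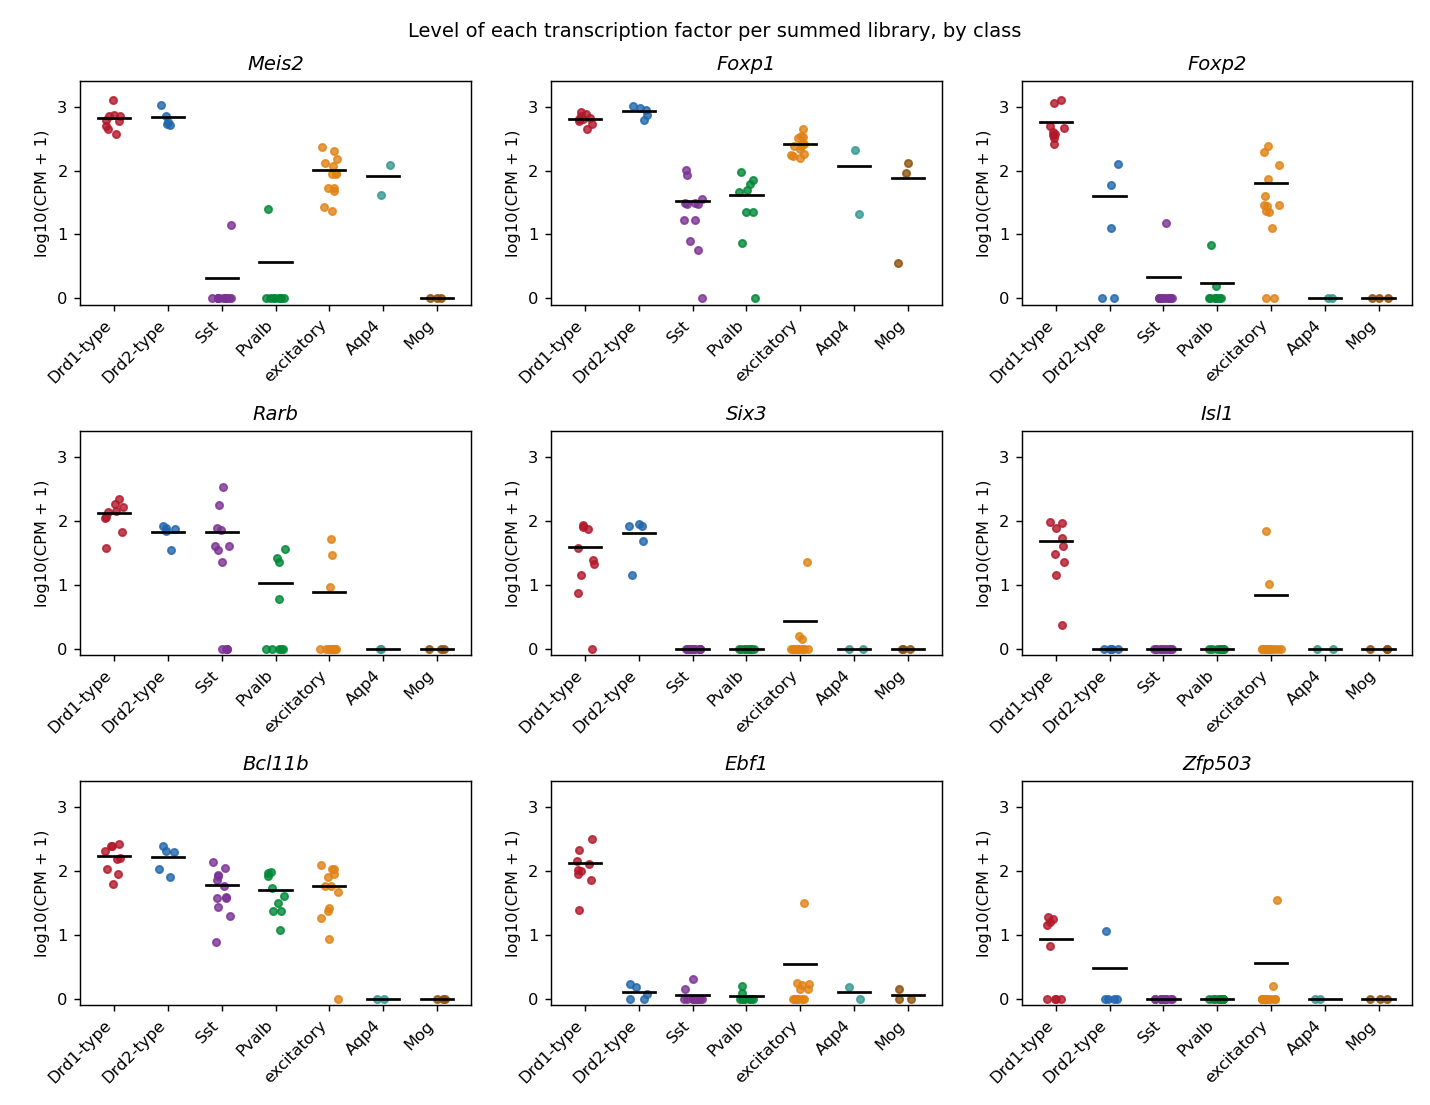
Level of each of the 9 factors in every summed library by class, as log10 of CPM plus 1; a point is the library of 1 construct and the bar is at the mean CPM of the class. Meis2 and Foxp1 sit high in both projection types, with Meis2 at 368 CPM or more in all 14. Isl1 and Ebf1 sit higher in the Drd1-type than in the Drd2-type libraries, with Isl1 at 0 in all 5 Drd2-type libraries.

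Foxp1, a forkhead repressor of both projection types, spanned 438 to 808 CPM in Drd1-type libraries with a median of 649 CPM. Its Drd2-type libraries held 624, 741, 878, 962 and 1005 CPM, and the types overlapped. Foxp1 was not limited to the striatal class: excitatory libraries spanned 154 to 439 CPM with a median of 242 CPM, Sst libraries 0 to 103 CPM and Pvalb libraries 0 to 92.6 CPM. Reads were found in 93.8% of Drd1-type, 98.6% of Drd2-type and 90.3% of excitatory nuclei, against 32.5% of Sst, 37% of Pvalb, 40.5% of Mog and 14.3% of Aqp4 nuclei. Excitatory and projection nuclei thus differed more in Foxp1 level than in the share of nuclei with a read.

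Bcl11b, a zinc finger factor also called CTIP2 that is known for projection neurons of the striatum and of cortical layer 5, spanned 61.8 to 261 CPM in Drd1-type libraries with a median of 158 CPM. The Drd2-type libraries held 79.3, 104, 193, 201 and 240 CPM. Sst libraries spanned 6.78 to 135 CPM, Pvalb libraries 10.7 to 93.9 CPM and excitatory libraries 0 to 124 CPM, so each of these overlapped the projection libraries. Both Aqp4 libraries and all 3 Mog libraries were at 0. The share of nuclei with reads was 75.9% in Drd1-type and 76.4% in Drd2-type nuclei, 50% in Sst, 48.9% in Pvalb and 34.3% in excitatory nuclei, and 2.86% in Aqp4 and 2.7% in Mog nuclei. Among the neuron classes Bcl11b was therefore graded in level, and the only classes at 0 in every library were Aqp4 and Mog.

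Rarb and Six3 were lower and were carried by a smaller share of projection nuclei of either type. Rarb encodes the retinoic acid receptor beta, a nuclear receptor that is activated by retinoic acid, a derivative of vitamin A. Rarb spanned 35.8 to 217 CPM in Drd1-type libraries with a median of 135 CPM. The Drd2-type libraries held 34, 68.6, 72.4, 75.9 and 81.3 CPM, within the Drd1-type range except the lowest. Sst libraries spanned 0 to 330 CPM with a median of 36.6 CPM. Only the highest of them, from the 5 nuclei of DLX2.0-dTomato-H2B, stood above every projection library, and the next held 178 CPM. Reads were found in 17.5% of Sst nuclei, against 52.7% of Drd1-type and 36.1% of Drd2-type nuclei. Pvalb libraries stayed at 35.4 CPM or less, 10 of 13 excitatory libraries were at 0, and so were both Aqp4 and all 3 Mog libraries.

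Six3, a homeobox factor that in the mouse is needed for neurons of the indirect pathway, spanned 0 to 84.9 CPM in Drd1-type libraries with a median of 23 CPM. The Drd2-type libraries held 13.3, 46.3, 82.3, 82.8 and 86.5 CPM, 3 of them about as high as the highest Drd1-type library. Six3 was at 0 in every Sst, Pvalb, Aqp4 and Mog library and in 10 of 13 excitatory libraries. Reads were found in 24.1% of Drd1-type nuclei (95% interval 16.5 to 33.1%) and 37.5% of Drd2-type nuclei (26.4 to 49.7%), and in 0 of 114 Sst nuclei, which by a floor of 3 counts allows a share of up to 2.63% of nuclei with a read (exact upper limit 3.18%). The intervals of the types overlap. The annotation places Six3os1 on the opposite strand over Six3, Top2b on the opposite strand over Rarb, and the antisense gene Gm12158 over Ebf1. Whether reads were counted by strand is not given in the sources used here, so reads of these partners cannot be told apart from those of Six3, Rarb and Ebf1 where they share sequence. In the fitted libraries Gm12158 had 250 reads in Drd1-type and 0 in Drd2-type libraries beside 3296 and 4 of Ebf1, Six3os1 had 557 and 200 beside 1166 and 1053 of Six3, and Top2b had 2848 and 2000 beside 3848 and 1052 of Rarb.

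Promoter windows of 250 bases before the annotated start were read for 8 of the 9 genes from RefSeq on GRCm38.p6, 11 windows in all, and 4 are shown: Rarb and Six3 because a motif of a factor on the list lies in them, and Isl1 and Ebf1 because their levels were the most alike of any pair. Capitals mark the matched letters, and sequences run 5′ to 3′ on the gene's strand. The Rarb window is chr14:16575477-16575726 (minus strand), Six3 chr17:85620584-85620833 (plus), Isl1 chr13:116309689-116309938 (minus) and Ebf1 chr11:44617850-44618099 (plus).
Rarb: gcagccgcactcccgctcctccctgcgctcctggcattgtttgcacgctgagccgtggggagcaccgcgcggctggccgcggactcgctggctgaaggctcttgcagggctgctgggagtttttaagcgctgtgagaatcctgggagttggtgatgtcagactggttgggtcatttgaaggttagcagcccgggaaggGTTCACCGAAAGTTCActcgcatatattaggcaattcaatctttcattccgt
Six3: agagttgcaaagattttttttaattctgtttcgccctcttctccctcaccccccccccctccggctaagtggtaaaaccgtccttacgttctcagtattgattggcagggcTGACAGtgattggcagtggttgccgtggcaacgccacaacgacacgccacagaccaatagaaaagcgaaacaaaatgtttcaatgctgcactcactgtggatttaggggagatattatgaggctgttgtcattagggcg
Isl1: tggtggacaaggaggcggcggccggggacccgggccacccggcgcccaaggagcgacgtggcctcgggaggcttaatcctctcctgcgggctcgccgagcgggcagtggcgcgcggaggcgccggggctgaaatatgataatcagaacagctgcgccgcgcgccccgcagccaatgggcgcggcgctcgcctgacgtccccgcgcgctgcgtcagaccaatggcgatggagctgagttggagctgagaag
Ebf1: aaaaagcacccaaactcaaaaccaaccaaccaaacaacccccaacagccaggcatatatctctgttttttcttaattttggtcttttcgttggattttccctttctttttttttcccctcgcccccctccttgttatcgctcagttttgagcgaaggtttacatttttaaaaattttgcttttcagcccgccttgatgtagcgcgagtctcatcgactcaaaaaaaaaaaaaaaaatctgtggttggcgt
A direct repeat of the kind that retinoic acid receptors bind, searched as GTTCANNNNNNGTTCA on both strands, matched 52 to 37 bases before the start of Rarb itself, and 22 of 32851 mouse promoter windows of this length hold a match (0.067%). TGACAG, the letters that Meis factors bind, matched 139 to 134 bases before Six3 and, on the other strand, 151 to 146 bases before 1 of the 3 Foxp1 starts, and 15.9% of all windows hold it. The forkhead letters TGTTTAC (3.17% of all windows) and the EBF letters TCCCNNGGGA (0.779%) matched none of the 11 windows. None of these motifs overlaps another, and a match describes letters in a window rather than a bound site.

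Foxp2, Ebf1 and Isl1 were higher in every Drd1-type library than in any Drd2-type library. By this count, chosen after the values were seen, the same held for 0.0981% of all genes. Foxp2, the forkhead factor known for its role in speech and vocal learning circuits, spanned 262 to 1265 CPM in Drd1-type libraries with a median of 407 CPM. The Drd2-type libraries held 0, 0, 11.8, 58.6 and 126 CPM. In the 3 constructs with libraries of both types, Foxp2 stood at 359 against 11.8 CPM with DLX2.0-SYFP2-P2A-3XFLAG-H2B, 407 against 126 CPM with DLX2.0-SYFP2-P2A-3XFLAG-H2B-SIRLOIN and 371 against 0 CPM with DLX2.0-dTomato-H2B. The Drd2-type library was the lower in all 3. Excitatory libraries spanned 0 to 243 CPM with a median of 27.7 CPM, below every Drd1-type library and overlapping the Drd2-type libraries. Reads were found in 76.8% of Drd1-type (95% interval 67.9 to 84.2%), 16.7% of Drd2-type (8.92 to 27.3%) and 19.4% of excitatory nuclei, against 7.61% of Pvalb, 1.75% of Sst and 0 of 35 Aqp4 nuclei, which by the same floor allows a share of up to 8.57%.

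Ebf1, a helix-loop-helix factor that in the mouse is needed for direct-pathway neurons, spanned 23.3 to 313 CPM in Drd1-type libraries with a median of 101 CPM. The Drd2-type libraries held 0, 0, 0.197, 0.498 and 0.666 CPM, 4 reads in all, so the lowest Drd1-type library stood far above them. Within constructs the values were 101 against 0 CPM with DLX2.0-SYFP2-P2A-3XFLAG-H2B, 141 against 0.197 CPM with DLX2.0-SYFP2-P2A-3XFLAG-H2B-SIRLOIN and 71.6 against 0.498 CPM with DLX2.0-dTomato-H2B. Reads were found in 63.4% of Drd1-type nuclei (95% interval 53.8 to 72.3%) and 6.94% of Drd2-type nuclei (2.29 to 15.5%). The Drd2-type share lay near those of classes that should lack the gene, 6.72% in excitatory, 5.71% in Aqp4, 2.7% in Mog, 2.63% in Sst and 2.17% in Pvalb nuclei. The highest Drd2-type nucleus held 91.3 CPM and the highest excitatory nucleus 342 CPM, while no Sst, Pvalb, Aqp4 or Mog nucleus exceeded 5.66 CPM.

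Isl1, a LIM homeobox factor of direct-pathway neurons and of striatal cholinergic interneurons, spanned 1.33 to 95.6 CPM in Drd1-type libraries with a median of 39.3 CPM. The lowest of these libraries held only 2 reads of Isl1. Isl1 was at 0 in all 5 Drd2-type libraries and in every Sst, Pvalb, Aqp4 and Mog library, and in 11 of 13 excitatory libraries. Reads were found in 28.6% of Drd1-type (95% interval 20.4 to 37.9%), 4.17% of Drd2-type (0.868 to 11.7%) and 0 of 114 Sst nuclei. The 3 Drd2-type nuclei with Isl1 lay in constructs with fewer than 5 such nuclei and entered no summed library, and 1 of the 3 had Meis2 reads. Zfp503, a zinc finger factor also called Nolz1 that is known from striatal development, was the lowest of the 9. It spanned 0 to 17.9 CPM in Drd1-type libraries with 4 of 9 at 0, and 10.3 CPM in 1 of 5 Drd2-type libraries with the other 4 at 0. Reads were found in 10 of 112 Drd1-type and 1 of 72 Drd2-type nuclei, so its difference was not detectable at this depth.

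**Figure D2:**
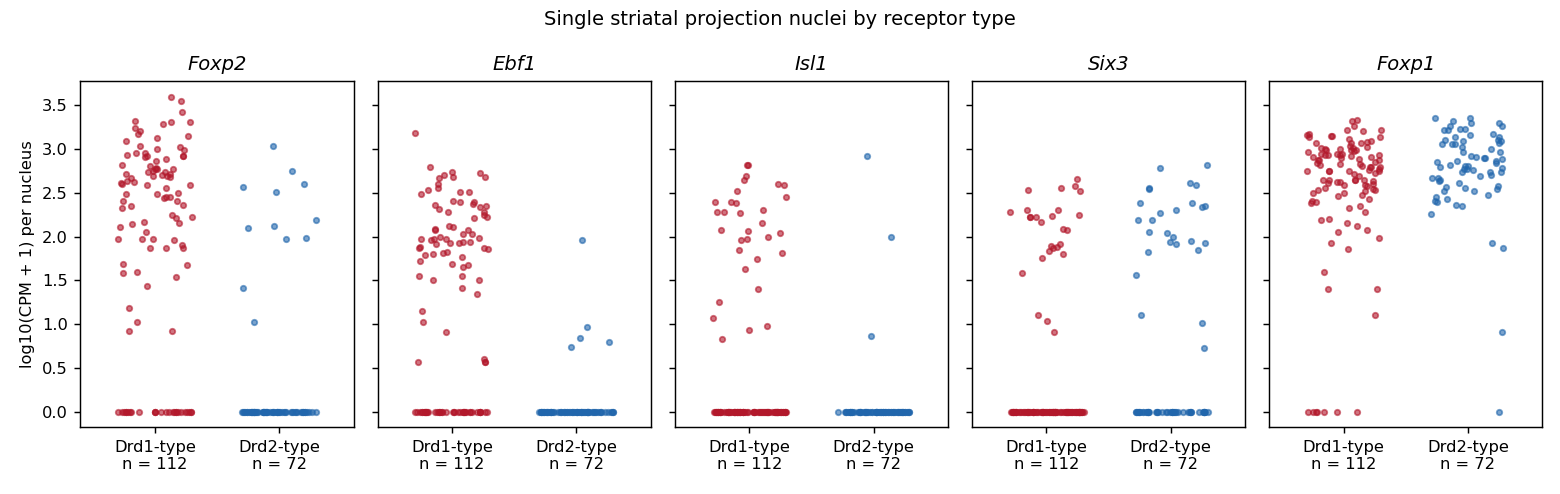
Level of Foxp2, Ebf1, Isl1, Six3 and Foxp1 in single nuclei of the Drd1-type (112 nuclei) and Drd2-type (72 nuclei), as log10 of CPM plus 1; a point is a nucleus, and nuclei without a read lie at 0. Foxp2, Ebf1 and Isl1 have reads in 76.8%, 63.4% and 28.6% of Drd1-type nuclei and in 16.7%, 6.94% and 4.17% of Drd2-type nuclei, while Foxp1 has reads in 93.8% and 98.6%.

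Thinning the reads and a stricter split by receptor kept the order of the Foxp2, Ebf1, Isl1 and Six3 shares. With every nucleus thinned to 30000 reads, Foxp2 was found in 72.3% of Drd1-type and 15.3% of Drd2-type nuclei, Ebf1 in 52.7% and 1.39%, Isl1 in 25% and 4.17%, Six3 in 20.5% and 34.7%, and Bcl11b in 67.9% and 69.4%. The 109 nuclei with reads of Drd1 alone and the 69 with Drd2 alone gave 78% and 15.9% for Foxp2, 64.2% and 4.35% for Ebf1, 29.4% and 2.90% for Isl1, and 24.8% and 36.2% for Six3. For Bcl11b, whose shares were close, they gave 76.1% and 75.4%, the other order than in the whole types. The 30 projection nuclei without reads of either receptor lay between the types for Foxp2 (33.3%), Ebf1 (23.3%) and Isl1 (20%), and below both for Meis2 (83.3%).

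**Figure D3:**
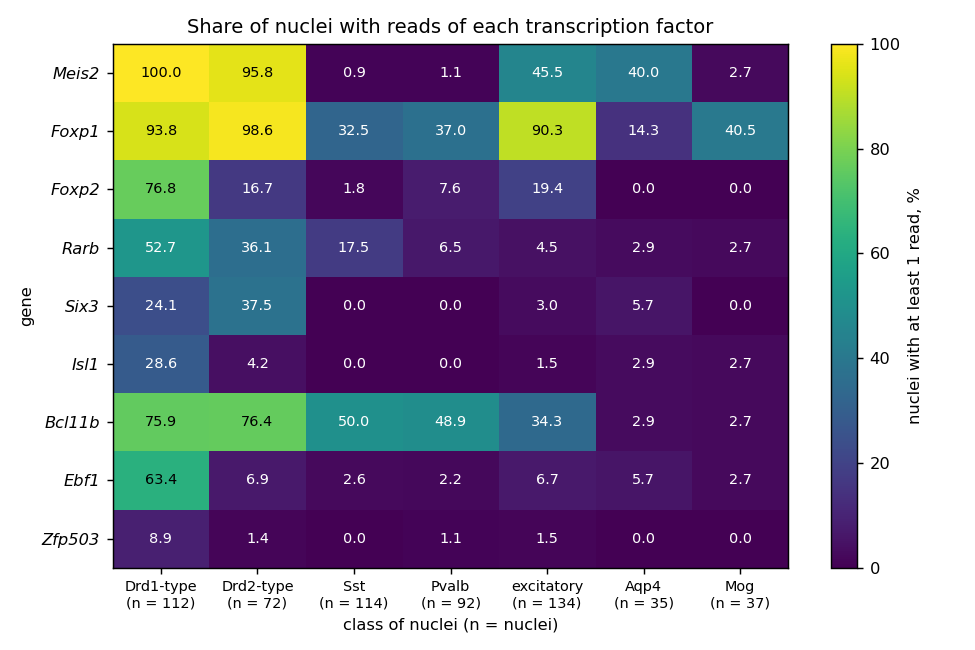
Share of nuclei with at least 1 read of each factor (rows) in each class (columns, with the number of nuclei), in percent, printed in each cell and shown by its colour. Meis2 stands at 100% and 95.8% in the projection types and at 0.877% in Sst nuclei, while Bcl11b runs from 75.9% in Drd1-type through 50% in Sst to 2.7% in Mog nuclei.

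Single projection nuclei carried several of the 9 factors together. Drd1-type nuclei had reads of 2 to 8 of the 9, with a median of 5, and Drd2-type nuclei 1 to 8 with a median of 4. At least 5 factors were found in 74.1% of Drd1-type and 19.4% of Drd2-type nuclei, 59.8% and 13.9% after thinning, against 4.48% of excitatory nuclei and 0 of the 114 Sst and 92 Pvalb nuclei. Among Drd1-type nuclei 54 held both Foxp2 and Ebf1, out of 86 with Foxp2 and 71 with Ebf1. Isl1 was joined by Ebf1 in 25 of its 32 Drd1-type nuclei and by Foxp1 in all 32. Among all 112 Drd1-type nuclei, Ebf1 was found in 71 and Foxp1 in 105. Whether factors met in a nucleus more often than such shares give was not tested. At the threshold of the class rule, the 4 nuclei with Rgs9 between 20 and 40 CPM and Slc17a7 under 20 CPM had Meis2 reads in 25%. The 2 nuclei with Rgs9 of 10 to 20 CPM had none. Nuclei that also met the rule of another class were not left out of these counts.

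**Figure D4:**
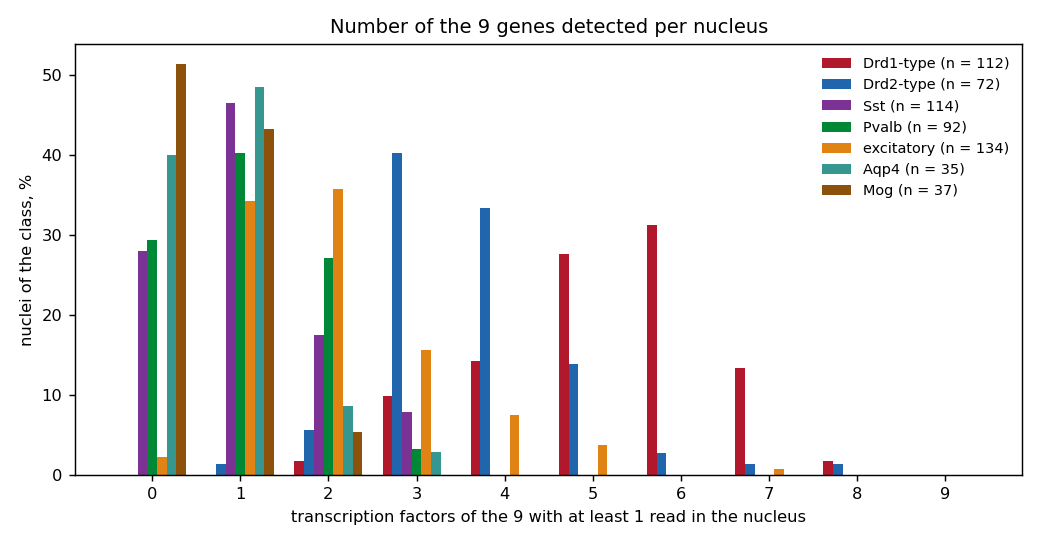
Share of nuclei in each class, in percent, by how many of the 9 factors had at least 1 read. The median is 5 in Drd1-type, 4 in Drd2-type, 2 in excitatory and 1 in Sst, Pvalb and Aqp4 nuclei, and 0 in Mog nuclei.

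Between projection and Sst nuclei, 5 of the 9 factors rose in projection nuclei in edgeR's quasi-likelihood test with the construct as a block (Benjamini-Hochberg adjusted p under 0.05 over 16314 genes, here and below): Meis2, Foxp2, Foxp1, Ebf1 and Six3. The test called 1299 genes, 7.96% of those tested in either direction and 2.71% as higher in projection nuclei. The log2 difference was 10.96 ± 0.96 (SE) for Meis2 with an adjusted p of 3.9e-17 in edgeR, 8.21 ± 1.22 for Foxp2, 4.87 ± 0.60 for Foxp1 and 5.83 ± 1.49 for Ebf1 with an adjusted p of 0.0045. Ebf1 had only 3 reads in the Sst libraries, and the pooled ratio was 688-fold (exact counting interval 235 to 3337). Of the 3300 projection reads behind that ratio, 3296 lay in Drd1-type and 4 in Drd2-type libraries, so it describes the Drd1-type. The fitted difference is instead the mean of the types on a log scale. Six3 had no Sst read and was at least 463-fold higher, against a floor of 3 counts over the group, with an adjusted p of 0.00064 in edgeR. Bcl11b (1.73 ± 0.77, adjusted p = 0.19) and Rarb (1.16 ± 1.45, adjusted p = 0.81) did not pass in edgeR. Isl1 and Zfp503 also had no Sst read, which bounds them at 334-fold and 48.1-fold or more, but Zfp503 did not pass (adjusted p = 0.23 in edgeR) and Isl1 could not be fitted, since its Drd2-type libraries were at 0 too. Over the 9 the median log2 difference was 5.83 with such genes at their bounds and 5.35 as fitted, against -0.32 over all genes tested.

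Against Pvalb nuclei the called factors were again Meis2, Foxp2, Foxp1, Ebf1 and Six3, at log2 differences of 9.87 ± 1.08, 8.41 ± 1.30, 4.31 ± 0.68 and 5.99 ± 1.76 for the first 4 and a bound of at least 336-fold for Six3. The test called 6.99% of genes, 2.51% as higher. The adjusted p of Ebf1 was 0.019 in edgeR, with 2 reads in the Pvalb libraries. Bcl11b (2.09 ± 0.87, adjusted p = 0.16 in edgeR) and Rarb (4.21 ± 1.6, adjusted p = 0.10) did not pass. Zfp503, with no Pvalb read, did not pass either (4.59 ± 2.27, adjusted p = 0.28 in edgeR), and Isl1, at least 243-fold higher by the floor, could not be fitted. That Isl1 bound rests on reads of Drd1-type libraries alone. The Sst and Pvalb comparisons share their projection libraries and are not independent. By a count chosen after the values were seen, 2 factors, Meis2 and Foxp1, had every projection library above every Sst library and also above every Pvalb library, as did 0.521% and 0.693% of all genes. Within the library pool S40325 alone, Meis2 and Foxp1 stayed called in both comparisons, while Foxp2, Ebf1 and Six3 missed the threshold (adjusted p of 0.17, 0.51 and 0.10 against Sst in edgeR). Pool S40317 held no projection nucleus, so pool and class are partly confounded there. Without the construct block edgeR called 7 factors against Sst (19.4% of genes) and 7 against Pvalb (18% of genes), adding Bcl11b and Zfp503.

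Against excitatory nuclei only Rarb was called, with a log2 difference of 5.36 ± 1.55 (adjusted p = 0.021 in edgeR), while the test called 5.64% of genes, 0.717% as higher. Meis2 (1.80 ± 0.78, adjusted p = 0.19), Foxp1 (1.30 ± 0.60, adjusted p = 0.24), Bcl11b (1.87 ± 0.85, adjusted p = 0.23) and Six3 (6.33 ± 2.27, adjusted p = 0.087) did not pass in edgeR with the block. Neither did Ebf1 (3.54 ± 1.92, adjusted p = 0.36 in edgeR), Zfp503 (3.22 ± 3.35, adjusted p = 0.73) and Isl1 (1.46 ± 5.89, adjusted p = 1). Without the block Meis2, Foxp1, Bcl11b, Rarb and Six3 passed, 5 of 9 beside 17.3% of genes, at adjusted p of 0.0093, 0.024, 0.037, 0.020 and 0.016 in edgeR. Meis2 alone had every projection library above every excitatory library, as did 0.221% of genes. Foxp2 differed by 0.58 ± 1.23 in that fit, where the projection value is the mean of the types on a log scale, so Drd2-type libraries at 0 pull it down. The Rarb call was lost (0 of 9 called) without the construct DLX2.0-U7snRNAOPT-SYFP2-H2B-BC, within pool S40325, in nuclei of at least 2000 genes and when nuclei were summed by the vector in the treatment label. Excitatory libraries also held up to 238 CPM of Rgs9 and up to 3262 CPM of the summed striatal markers, whose part in the result was not tested. Pool S40317 held 54 of the 134 excitatory nuclei and no projection nucleus, so pool and class are partly confounded in this comparison too.

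In cortical excitatory nuclei, Foxp2 and Bcl11b went with deep-layer genes. Of the 26 excitatory nuclei with Foxp2 at 20 CPM or more, 76.9% had Tle4, a corepressor of layer 6, at 20 CPM or more. By the same cut, 34.6% had Syt6, a synaptotagmin of layer 6, and 57.7% had Fezf2, a zinc finger factor of layer 5. In the 108 with less Foxp2 these shares were 30.6%, 1.85% and 12%. Of the 40 excitatory nuclei with Bcl11b at 20 CPM or more, 42.5% had Fezf2 and 62.5% had Tle4 by that cut. The shares were 11.7% and 29.8% of the 94 others. These are counts over nuclei with no test.

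Against the glial classes the number of libraries was small. Against the 2 Aqp4 libraries only Bcl11b was called, at least 184-fold higher with an adjusted p of 0.0064 in edgeR, where 4.79% of genes were called, 4.5% as higher. It was lost, with 0 factors and 249 or 371 of 16314 genes called, without either Aqp4 library. Meis2 (1.45 ± 1.70, adjusted p = 0.86 in edgeR) was not called, with reads in 40% of Aqp4 nuclei. Foxp1 (3.95 ± 1.66, adjusted p = 0.17 in edgeR), Foxp2 (at least 352-fold higher by the floor, adjusted p = 0.20) and Ebf1 (adjusted p = 1, with 1 read in the Aqp4 libraries) were not called either. Isl1, Rarb, Six3 and Zfp503 could not be fitted there. Against the 3 Mog libraries 5 factors were called higher where 12.6% of genes were called, 10.6% as higher: Meis2 at least 1325-fold, Foxp2 at least 680-fold, Bcl11b at least 357-fold and Rarb at least 240-fold higher by the floor, and Foxp1 by 3.94 ± 1.13 on the log2 scale (adjusted p = 0.0098 in edgeR). Only 3 were called, among 1548 of 16314 genes, without the Mog library of DLX2.0-3xU7snRNAOPT-SYFP2-H2B-BC. Ebf1, with 1 Mog read (adjusted p = 0.19 in edgeR), Six3 (at least 109-fold higher by the floor, adjusted p = 0.39) and Zfp503 (adjusted p = 0.76) were not called, and Isl1 could not be fitted. Every projection library lay above every Aqp4 and every Mog library for 4 factors in each comparison (Meis2, Foxp1, Rarb and Bcl11b), beside 6.03% and 4.66% of all genes.

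Other fits called more or fewer of the 9 as higher in projection nuclei, along with more or fewer genes. Without the block edgeR called 2 against Aqp4 (17.5% of genes) and 6 against Mog (22.2%). DESeq2 with the block called 8 against Sst (23.9%), 9 against Pvalb (21.3%), 5 against excitatory (19.9%), 2 against Aqp4 (26.8%) and 6 against Mog (34.3%). With all projection nuclei of a construct summed as 1 class, a fit added after the values were seen, edgeR called 6 against Sst (5.53%), 6 against Pvalb (4.76%), 2 against excitatory (3.09%), 1 against Aqp4 (7.14%) and 6 against Mog (14.5%), with Isl1 joining the factors called against Sst and Pvalb and Ebf1 joining Rarb against excitatory. That fit without the block called 8 (16.8%), 8 (15.9%), 7 (12.3%), 2 (15.9%) and 7 (22.7%) in the same order.

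Between the types of projection neuron, no factor passed the test with the construct block, and 10 genes did in all (0.0613% of those tested, 0.0429% as higher in Drd1-type). Foxp2 differed by 5.17 ± 1.54 on the log2 scale (adjusted p = 0.31 in edgeR) and Ebf1 by 8.21 ± 2.75 (adjusted p = 0.47). Isl1, at 0 in the Drd2-type libraries, was at least 274-fold higher in the Drd1-type by the floor (adjusted p = 0.56 in edgeR). All 3 had every Drd1-type library above every Drd2-type library, as did 0.0981% of genes, a count chosen after the values were seen. At an unadjusted p under 0.05, 796 of 16314 genes passed, Foxp2 (0.0011), Ebf1 (0.0035) and Isl1 (0.0064) among them in edgeR. That is about as many as such a threshold passes by chance, so passing it is no result. Without the block edgeR called 35 genes, 0.215%, with Ebf1 among them (8.64 ± 2.08, adjusted p = 0.046), and DESeq2 called 1237 genes, 7.58%, with Ebf1 and Isl1 among them (adjusted p of 0.00025 and 0.00028). The genes called with the block were Drd1, which the split used, Pdyn, the precursor of dynorphin, and Lingo2, Tmem25, Efr3a, Cntnap3 and Adcy2 as higher in Drd1-type, and Chrm3, Sst and Grik3 as lower. The class rule capped Sst, which had reads in 1 of 72 Drd2-type and 0 of 112 Drd1-type nuclei, so its call is no result. Meis2 (0.81 ± 0.96), Foxp1 (-0.46 ± 0.74), Bcl11b (-0.01 ± 2.65), Rarb (2.32 ± 1.88), Six3 (-1.21 ± 1.83) and Zfp503 (2.95 ± 3.78) all had an adjusted p of 1 in edgeR, and these errors are too wide to show that the types are alike.

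**Figure D5:**
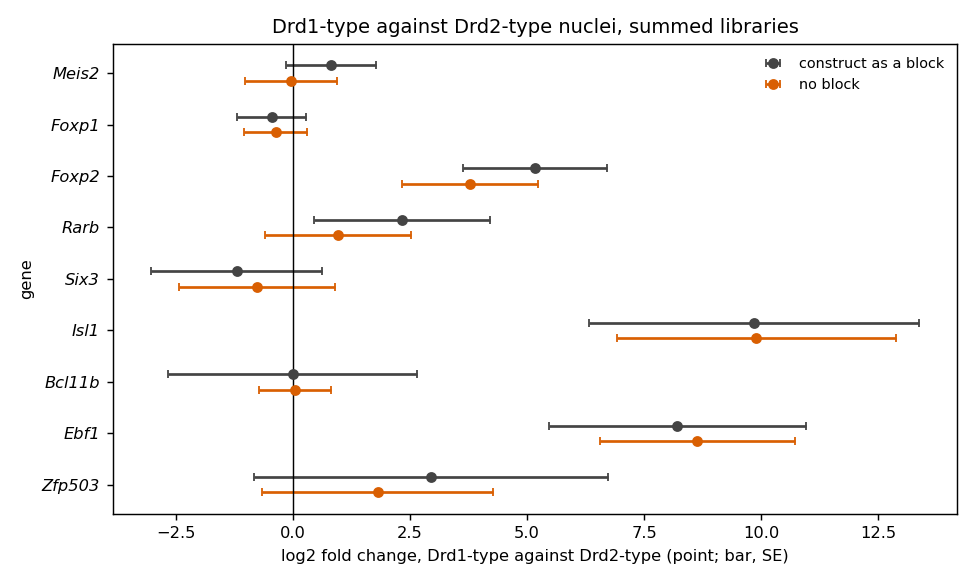
Log2 difference of each factor between Drd1-type (9 libraries) and Drd2-type (5 libraries) projection neurons in edgeR, with bars of 1 SE, for the fit with the construct as a block and the fit without it. With the block Foxp2, Ebf1 and Isl1 lie at 5.17, 8.21 and 9.85, to the right of the other 6; Isl1 is at 0 in all 5 Drd2-type libraries, so its fitted value depends on the prior count.

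Isl1 reads also marked nuclei outside the projection class. Of the 117 nuclei in no class, 18 had Isl1 reads, and all 18 had reads of Slc5a7, the choline transporter. Chat, the enzyme of acetylcholine synthesis, was found in 17 of them and Lhx8, a LIM homeobox factor of cholinergic interneurons, in 17, while Meis2 and Rgs9 were found in none and Drd2 in 14. By a rule chosen after these values were seen, 24 of all kept nuclei had reads of at least 3 of 5 cholinergic markers, and all 24 had Isl1, at a median of 185 CPM. Foxp1 was found in 13 of the 24, Bcl11b in 7 and Meis2 in 2. Of the 24, 3 had met the projection rule and none was Drd1-type, and without them Isl1 was found in 38 of 211 projection nuclei (18%) and in the same 32 of 112 Drd1-type nuclei. The highest Isl1 value was 838 CPM both among the 24 and among Drd2-type nuclei. The Drd2-type share of 4.17% may therefore include nuclei with cholinergic markers, and it was not recounted without them. The 5 cholinergic markers summed to at most 12.4 CPM in Drd1-type, 22.1 CPM in Drd2-type and 48.5 CPM in excitatory libraries. These sums do not cover the 3 Drd2-type nuclei with Isl1, which entered no summed library.

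The 39 nuclei that met both the projection and the Sst rule, left out above, had Meis2 reads in 33.3%, Foxp1 in 61.5%, Bcl11b in 59% and Rarb in 25.6%. Lhx6, a homeobox factor of medial-origin interneurons, was found in 46.2% of them and Ppp1r1b, the dopamine-regulated phosphatase inhibitor of projection neurons, in 38.5%. The Meis2 share was thus below that of either projection type and above the 0.877% of Sst nuclei.

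Related genes were grouped by their known roles. Of 13 relatives of the 9 factors, 8 passed the low-count filter: Meis1, the closest relative of Meis2, was called higher than in Sst nuclei (7.34 ± 2.37, adjusted p = 0.036 in edgeR), Ebf4 lower than in Sst and Pvalb nuclei (-9.28 ± 1.93 and -7.47 ± 1.79), and Bcl11a higher than in Aqp4 and Mog nuclei. The median of the relatives against Sst was -0.97, beside -0.32 over all genes. Of 18 retinoid pathway genes, 14 passed the filter and 1 was called in each of the 5 class comparisons. It was Rxrg, the retinoid X receptor gamma that pairs with retinoic acid receptors, against Sst (9.28 ± 1.57), Pvalb (11.14 ± 1.97), excitatory (6.90 ± 1.78) and Mog (9.0 ± 2.79), and the corepressor Nrip1 against Aqp4. Of all genes tested, 7.96% were called against Sst, 6.99% against Pvalb, 5.64% against excitatory, 4.79% against Aqp4 and 12.6% against Mog. A count of 1 of 14 lies within the range of these shares and is no result about the list. The same shares stand beside the calls of the relatives.

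Among 15 other striatal developmental factors, 11 passed the filter, and 1 was called higher and 2 lower against Sst nuclei, 0 and 2 against Pvalb, 2 and 1 against excitatory, 0 and 0 against Aqp4, and 1 and 1 against Mog, beside the shares of all genes given above. Against Sst nuclei Pbx3, a TALE homeobox partner of Meis proteins, was called higher (10.30 ± 2.08) and Dlx1, a homeobox factor of all forebrain GABAergic neurons, lower (-6.35 ± 1.66), as was the zinc finger factor Ikzf2 (-5.73 ± 1.72). Dlx1 and Ikzf2 were lower against Pvalb nuclei too, and Dlx6 (7.66 ± 1.66) and Dlx5 (7.29 ± 1.85) were higher against excitatory nuclei, in which Ikzf2 was again lower. Of 18 projection neuron effector genes, such as Pde10a, the striatal phosphodiesterase, and Arpp21, a dopamine-regulated phosphoprotein, 13 were called higher and 1 lower against Sst nuclei, 11 and 0 against Pvalb, 12 and 0 against excitatory, 6 and 0 against Aqp4, and 12 and 0 against Mog, beside the same shares of all genes. The lower one was Pdyn (-7.60 ± 1.28), which was also the single effector called between the types, 13.32 ± 2.25 higher in Drd1-type (adjusted p = 0.00023 in edgeR). The projection value is the mean of the types on a log scale, so the low Drd2-type libraries pull Pdyn down against Sst. That call does not show Pdyn to be low in Drd1-type nuclei.

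Across the 53 libraries, Isl1 and Ebf1 were each other's most alike gene among the 16314 that passed the filter (Pearson r = 0.89 of log2(CPM + 1)). Meis2 went with Baiap2 (0.88), Rgs9 (0.87), the gene of the class rule, and Ccdc88c (0.87). Foxp1 went with Arpp19 (0.82), Ptk2b (0.80) and Arpp21 (0.78), and Foxp2 with Atp2b1 (0.79), AC128672.1 (0.77) and Rgs9 (0.77). Rarb followed Htr2c (0.72), Adcy5 (0.70) and Syndig1l (0.70), and Six3 followed Mhrt (0.92), Tgfa (0.90) and Gm38413 (0.84). Bcl11b was nearest Runx1t1 (0.85), Ndrg4 (0.84) and Elmod1 (0.82), and the low Zfp503 nearest Zmynd10 (0.68), Asb11 (0.67) and Adam7 (0.67). The libraries share constructs and class thresholds and fall into separate classes, so these values describe the classes rather than a relation within 1 class. The weakest pair among the 9 was Rarb with Zfp503 (0.24).

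The position of the RNA element was the study's own paired contrast of constructs, and none of the 9 factors was called in it. It could be fitted for 3 of 6 elements, 3xsmOPT, BORG and U7snRNAOPT, each with 6 to 12 projection nuclei before and after the fusion, summed across the types into libraries of their own. The arms differed in type: 3xsmOPT had 0 Drd1-type and 6 Drd2-type nuclei before and 3 and 3 after, BORG 6 and 0 before and 5 and 2 after, and U7snRNAOPT 2 and 5 before and 6 and 4 after. The part of this makeup in the values was not tested. In edgeR with the element as a block, 0 of 8405 genes (0%) and 0 factors were called, 156 genes passed an unadjusted p under 0.05, and DESeq2 called 580 genes (6.9%) and 0 factors. Meis2 differed by -0.24 ± 0.47, Foxp1 by 0.52 ± 0.42, Bcl11b by -0.54 ± 0.95 and Foxp2 by 2.39 ± 1.51 with the element after the fusion on the log2 scale, each with an adjusted p of 0.999 in edgeR. The errors were wider for Rarb (0.91 ± 1.55), Six3 (1.65 ± 2.42), Ebf1 (4.29 ± 3.41), Isl1 (5.62 ± 5.46) and Zfp503 (-1.77 ± 4.58), at the same adjusted p.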

How the data were processed

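The members and the related gene lists were chosen with earlier results of these data known. The authors deposited counts of reads per gene for single nuclei in 1 table of 32285 genes and 2501 columns. The 904 columns that match a sample were used, and 1597 others, which no label describes, were not. The submitters' processing notes name STAR 2.7.2a and the build mm10. How reads were counted, by strand or not and with introns or not, is not given in the sources used here. Gene IDs were matched to GENCODE M21 (32235 matched, 50 not). No 2 kept nuclei had identical counts. Doublets were not called. Of the cholinergic markers first listed, 1 is not reported here, and the list was used without it. The kept nuclei hold 30023 to 719419 reads (median 260274). The titles name 16 constructs and the treatment labels 16 vectors that do not map to each other (4 to 5 vectors per construct), and the titles were used.

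Nuclei of a class were summed per construct, passed through filterByExpr and TMM scaling, and compared in 1 fit over 7 classes (edgeR 4.0.16, quasi-likelihood, under R 4.3.3) that had construct as a block, the projection value being the mean of its types. DESeq2 1.42.0 was an alternative. The threshold was a Benjamini-Hochberg adjusted p of 0.05, with the adjustment over every gene tested. The SE is the size of a log2 difference divided by the square root of F. A group at 0 was set to 3 counts over the group for a lower bound. The rule for named genes takes all 9 members in every comparison, up to 3 called genes of each list and direction, not all of which are printed, and the 3 genes most alike to each member. Shares carry exact 95% Clopper-Pearson intervals. The fit was also run on simulated counts with known differences between the types and no construct effect, and no conclusion is drawn from that run. Alternatives were other scaling, filters, class thresholds, pools, groupings, a fit without the block and leaving out constructs. Summing projection nuclei as 1 class, splitting by nuclei with 1 receptor and counting libraries that do not overlap were added after the values were seen. Python 3.11.15, numpy 2.4.6, pandas 2.3.3, scipy 1.17.1 and matplotlib 3.10.9 were used.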

Additional observations from a re-analysis of the deposited data

Results flagged for a closer look

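In 6 of 23 sets of 4 to 10 libraries, 1 library stood apart from the rest of its class by Dixon's criterion. Chance meets it in about 1 in 20 sets only where values follow a normal distribution. A set with reads in only 1 library always meets it. The 6 of 23 therefore cannot be set against that rate. Meis2 reached 1255 CPM in the Drd1-type library of DLX2.0-SYFP2-H2B-U7snRNAOPT-BC, above the next at 749 CPM, and 24.5 CPM in the Pvalb library of DLX2.0-SYFP2-P2A-3XFLAG-H2B, where the other 8 held none. Foxp2 reached 5.83 CPM in the Pvalb library of DLX2.0-SYFP2-P2A-3XFLAG-H2B-SIRLOIN, against 0.571 CPM in the next. Rarb was lowest, at 34 CPM, in the Drd2-type library of DLX2.0-U7snRNAOPT-SYFP2-H2B-BC, against 68.6 CPM in the next. Ebf1 reached 0.571 CPM in the Pvalb library of DLX2.0-SYFP2-H2B-3xBORG-BC, against 0.208 CPM in the next, with 1 read in each. Zfp503 reached 10.3 CPM in the Drd2-type library of DLX2.0-SYFP2-P2A-3XFLAG-H2B, where the other 4 held none.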

How the results depend on the processing

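No paired analysis was possible because the replicate numbers in the titles only number nuclei within a construct, and nuclei were summed. The construct or the element served as the block instead. Counts of called genes depended on the construct block and the tool more than their direction did. Without the block edgeR called 3167 genes against Sst, 2929 against Pvalb, 2822 against excitatory (5 members), 2861 against Aqp4 (2 members), 3629 against Mog and 35 between the types (1 member). DESeq2 called 3906 (8 members), 3478 (9), 3239 (5), 4370 (2), 5595 and 1237 (2). With projection nuclei as 1 class, a fit added after the values were seen, 509 genes (2 members) were called against excitatory and 1178 against Aqp4, and without the block as well 2776 (8), 2623 (8), 2035 (7), 2614 (2) and 3746 in the order above. Libraries of at least 10 nuclei gave 133 genes (2 members) against Sst, 300 (2) against Pvalb and 193 (2) against excitatory, and those of at least 3 nuclei gave 1169 of 13690 genes (2 members) against excitatory, 4347 genes (5) against Aqp4 and 3637 against Mog. Pool S40325 alone gave 373 genes (2 members), 285 (2), 74 (0) and, between the types, 2. Against excitatory, summing by the treatment label gave 577 genes (0 members) and nuclei of at least 2000 genes 0 members. Between the types, counts were 31 without the filter, 3 with at least 2000 genes, 34 by the treatment label and 6 with RLE scaling. For the element position they were 14 without the filter and 580 with DESeq2.

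Leaving out constructs was run for those that hold a library of a class with 2 to 5 libraries. It gave 6 to 27 genes between the types, 249 to 811 genes against Aqp4 (249 and 371, with 0 members, without either of its libraries), 0 to 2 members against excitatory and 3 members against Mog at the lowest. Pools S40317 and S40327 gave no value between the types, and leaving out an element gave none for the element position. Directions turned for differences near 0 or with wide errors, and the cause was not tested. Between the types Meis2 was -0.44 (thresholds doubled), -0.042 (pool S40325) and -0.035 (no block). Bcl11b there was 0.0013 without the filter, 0.15 with libraries of at least 3 nuclei, 0.23 with thresholds halved, 0.31 with at least 2000 genes, 0.15 by the treatment label, 0.40 with at least 10 nuclei, 0.041 without the block, and -0.29 to 0.41 with constructs left out. Against excitatory, Isl1 was -2.67 with DESeq2, -0.58 in pool S40325 and -1.90 without the block, and Foxp2 -0.16 to 1.22 with constructs left out, lowest without DLX2.0-U7snRNAOPT-SYFP2-H2B-BC. Without the element block Foxp2 was -0.14, Ebf1 -1.59 and Zfp503 0.14. Thinning moved 12 of 63 shares of nuclei beyond their interval, a minimum of 2000 genes moved 13, and other class thresholds moved 0. Few reads limit Zfp503, with 231 in all projection libraries.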
